A study of Homo sapiens with 6 samples.

Results

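The genes of the mitochondrial ribosomal proteins were taken as the listed genes whose symbol is MRPL or MRPS followed by a number and, in a few cases, a letter from A to C. The pattern matched 78 of the 26819 genes in the table, 48 of the large subunit (MRPL) and 30 of the small subunit (MRPS). They carry 76 distinct symbols, because MRPL30 and MRPS17 each have a second entry (ENSG00000273155.1 and ENSG00000249773.3) that overlaps the first. The pattern uses no measured value, but the set was chosen with earlier results of these data known.

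Mitochondria carry their own ribosome, which translates the few messages of the mitochondrial genome, all of them for subunits of the respiratory chain and ATP synthase. Its ribosomal RNAs come from mitochondrial DNA. Its proteins are encoded in the nucleus, made on cytosolic ribosomes and imported. Many descend from bacterial ribosomal proteins, and others were gained in the mitochondrial lineage. Tumour cells that rely on respiration need this ribosome, and transcription factors such as NRF1, the ETS factor GABPA, YY1 and MYC are known to act at promoters of its genes.

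RNA was sequenced from C4-2, a human prostate cancer line derived from LNCaP that grows without androgen. All libraries came from cells of the genotype Tet-O-YAP5SA, in which doxycycline (Dox) switches on a form of the transcriptional coactivator YAP1 that LATS kinases cannot inactivate, and all grew in RPMI-1640 medium with serum. There were 3 libraries from cells given Dox for 24 hours (Dox) and 3 from cells without Dox (Ctrl). Dox is labelled 0.2 mg/ml, an unusually high dose whose unit is in doubt. The labels do not say whether the line is 1 clone or whether replicates were separate cultures, so a p-value here is set by the spread of these libraries, which may be technical. No cells without the transgene received Dox, so effects of the drug and of YAP5SA cannot be told apart.

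YAP1 itself stood at 263, 277 and 268 TPM (a read count per unit of gene length, with every library scaled to the same sum) in the Dox libraries and at 52.7, 57.9 and 59.9 TPM in the Ctrl libraries. Reads recovered from the values numbered 24960546 to 29261658 per Dox library and 27591707 to 28804833 per Ctrl library. Prostate luminal markers were expressed in both groups, with KLK3 at 1795 TPM in Dox and 3297 TPM in Ctrl. The 8 luminal markers summed to 4601 to 4630 TPM in Dox and 6208 to 6281 TPM in Ctrl, with 2 called higher and 5 lower. The 11 listed fibroblast, endothelial and immune markers were near 0 in both groups, except COL1A1, VWF and CD68, the highest at 20.2 TPM. Whether these shifts bear on the genes described here was not tested.

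Promoter sequence is shown for the largest called fall and the largest called rise of each subunit by symbol, since these 4 genes carry the extremes described below. The stretches are from RefSeq (GRCh38.p14), run 5′ to 3′ on the strand of the gene and end before its first annotated exon. Capitals mark a binding motif. MRPS18A (chr6:43687792-43688041, minus strand) holds the ETS motif CCGGAAG, and its whole window also holds the YY1 core, outside the printed stretch. MRPL17 (chr11:6683402-6683590, minus strand) holds the palindrome formed by 2 overlapping copies of the NRF1 core, GCGCATGC on one strand and on the other. MRPS31 (chr13:40771191-40771440, minus strand) holds the ETS motif, and the whole window of MRPL44 (chr2:223957213-223957403, plus strand) holds none of the 5 motifs searched.
MRPS18A: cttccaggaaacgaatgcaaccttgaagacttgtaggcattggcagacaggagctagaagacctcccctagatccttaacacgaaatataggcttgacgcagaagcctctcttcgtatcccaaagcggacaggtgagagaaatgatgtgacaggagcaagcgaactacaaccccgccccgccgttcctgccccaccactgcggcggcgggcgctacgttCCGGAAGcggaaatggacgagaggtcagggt
MRPL17: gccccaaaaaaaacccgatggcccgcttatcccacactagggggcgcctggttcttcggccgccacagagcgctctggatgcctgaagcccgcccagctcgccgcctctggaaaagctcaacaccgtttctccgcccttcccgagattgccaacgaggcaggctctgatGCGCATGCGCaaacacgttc
MRPS31: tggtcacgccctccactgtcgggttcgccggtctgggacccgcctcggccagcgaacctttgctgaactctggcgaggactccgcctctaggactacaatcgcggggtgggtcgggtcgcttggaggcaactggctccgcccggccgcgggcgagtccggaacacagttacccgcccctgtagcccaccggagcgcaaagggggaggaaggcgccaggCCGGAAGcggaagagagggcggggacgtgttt
MRPL44: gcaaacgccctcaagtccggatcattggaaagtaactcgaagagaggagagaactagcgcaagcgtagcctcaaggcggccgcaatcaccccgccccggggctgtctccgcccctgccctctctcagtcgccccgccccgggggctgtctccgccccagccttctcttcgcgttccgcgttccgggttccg

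With Dox, more of the mitochondrial ribosomal protein genes fell than rose, by small amounts. At a limma adjusted p under 0.05, 34 of the 78 were lower in Dox, 9 were higher and 35 did not pass. Of all 14833 genes tested (at least 1 TPM in at least 3 libraries, which all 78 met), 17.8% were called lower and 35.9% higher. The median log2 fold change was -0.09 over the 78 genes and 0.10 over all genes tested, and 66 of the 78 lay below the median of all genes. Changes ran from -0.75 to 0.53 on the log2 scale. In bulk samples, fewer cells of a type and less RNA per cell cannot be told apart.

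The count of calls moved with the scaling of the libraries, while lower calls outnumbered higher ones under each scaling tried. Median-ratio rescaling gave 52 lower and 4 higher among the 78, where all genes had 26.6% lower and 26.7% higher. Quantile normalization gave 49 lower and 5 higher, where all genes had 29.3% lower and 23.8% higher. Quantile normalization shifted the median of all genes by -0.13 (log2). The members' median stayed below that of all genes by similar amounts, with differences of -0.19 as deposited, -0.20 (median-ratio) and -0.15 (quantile). Under all 3 scalings, 34 of the genes were called lower and 4 higher.

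All 3 Dox libraries lay below all 3 Ctrl libraries for 40 of the 78 genes, against 21.1% of all genes tested. All 3 Dox libraries lay above all 3 Ctrl libraries for 13, against 40.8% of all genes. The groups overlapped for the other 25. Beyond the 10 largest falls, the 24 remaining lower genes had log2 fold changes of -0.31 to -0.10, and the 35 genes not called ran from -0.18 to 0.22. The second entry of MRPL30 was called lower, at -0.18 ± 0.06, and that of MRPS17 was not called. Without these 2 entries, 33 were lower and 9 higher.

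**Figure D1:**
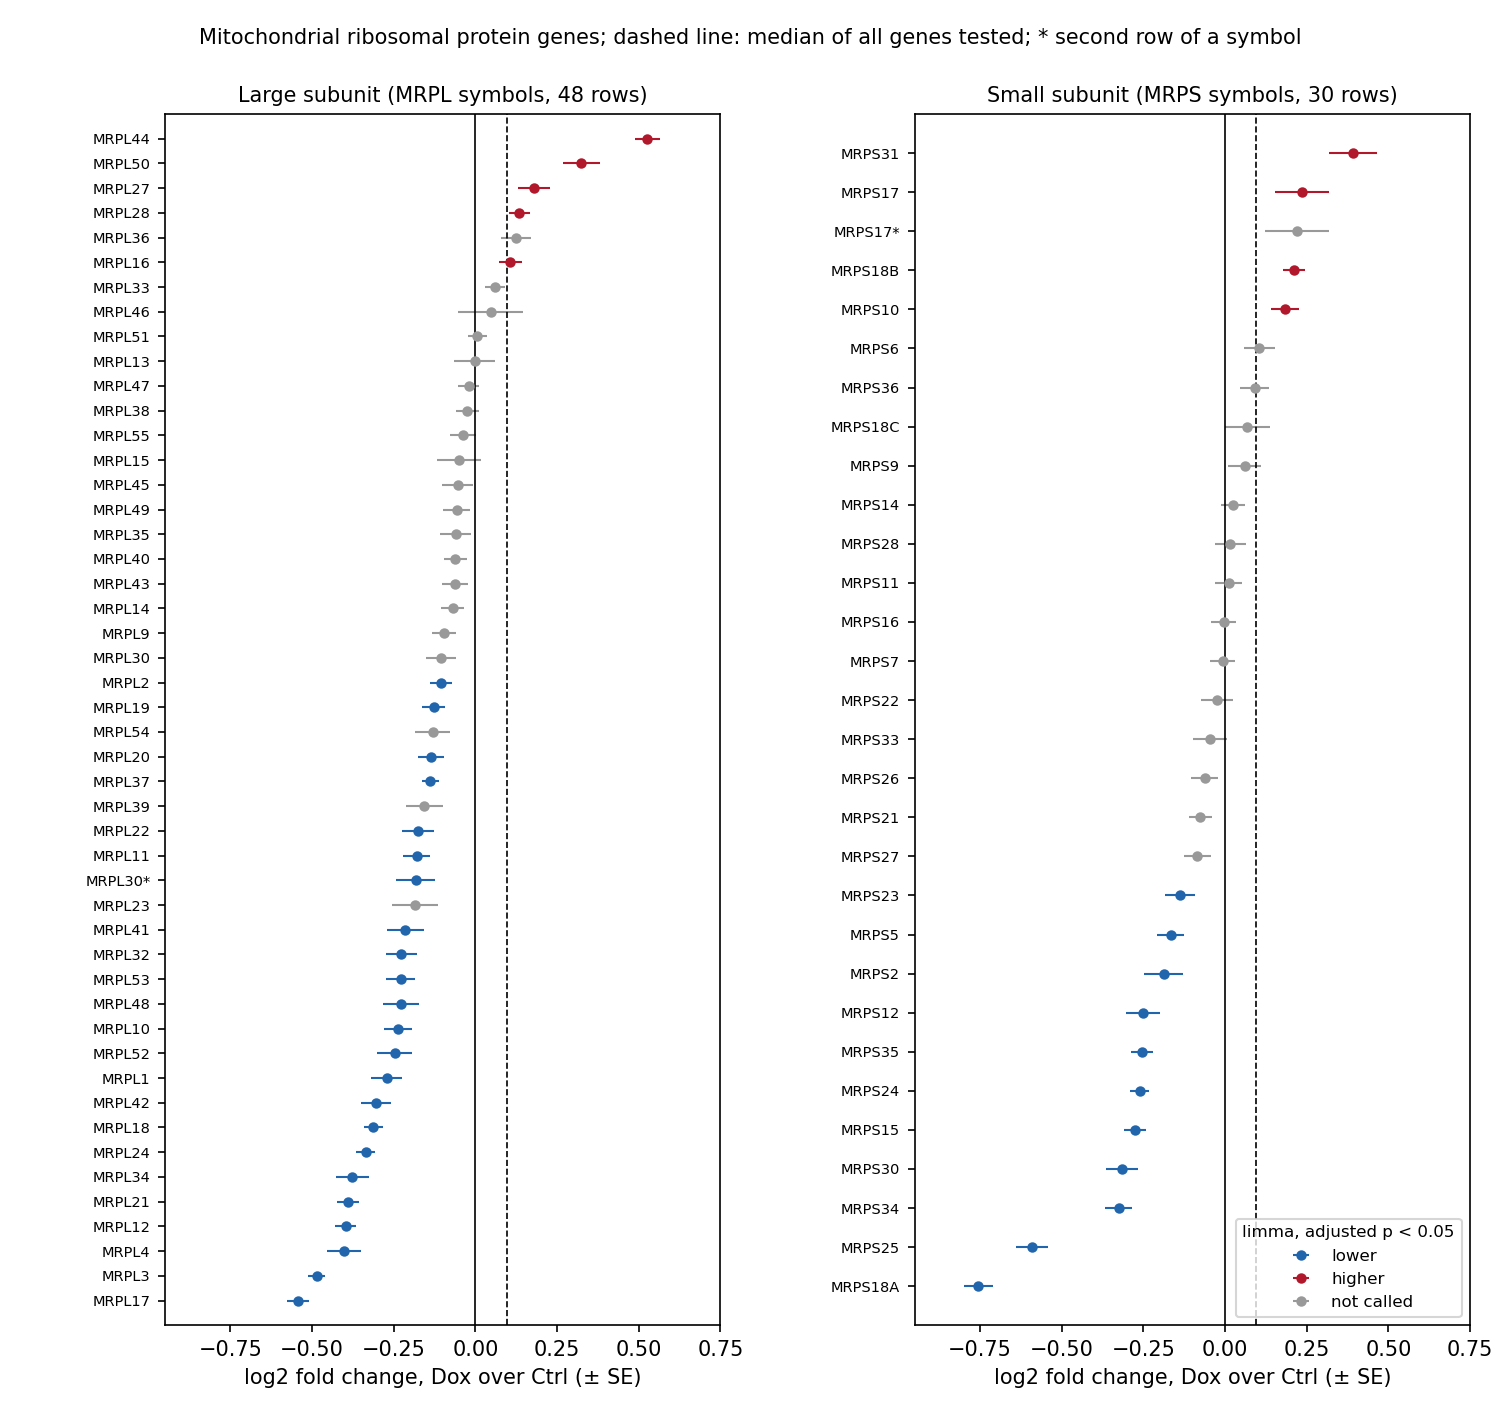
Log2 fold change of each gene, Dox over Ctrl, with its standard error (limma, 3 libraries per group), for MRPL symbols on the left and MRPS symbols on the right. Blue points were called lower, red higher and grey not called. The dashed line is the median of all 14833 genes tested, 0.10, and most points lie to its left, from MRPS18A at -0.75 to MRPL44 at 0.53.

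Together, the 78 genes took a smaller share of the transcript pool with Dox. Their summed TPM was 0.878%, 0.851% and 0.859% of the total in the Dox libraries and 0.952%, 0.943% and 0.944% in the Ctrl libraries. Every Dox library was below every Ctrl library. The means were 0.863% ± 0.0140 in Dox and 0.947% ± 0.00507 in Ctrl (SD, n = 3 each), a ratio of 0.911.

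The summed share was lower in Dox for both subunits, with no test of the difference between them. The 48 MRPL genes made up 0.581% ± 0.00810 of the pool in Dox and 0.643% ± 0.00412 in Ctrl, a ratio of 0.903. The 30 MRPS genes made up 0.281% ± 0.00589 in Dox and 0.303% ± 0.000988 in Ctrl, a ratio of 0.928 (SD, n = 3 each). The sum of the large subunit over that of the small subunit was 2.05, 2.07 and 2.07 in the Dox libraries and 2.13, 2.12 and 2.12 in the Ctrl libraries, without overlap. Read by gene, 23 MRPL genes were lower (47.9%) and 5 higher (10.4%), with a median log2 fold change of -0.13. Of the MRPS genes, 11 were lower (36.7%) and 4 higher (13.3%), with a median of -0.03. All genes tested had 17.8% lower and 35.9% higher, with a median of 0.10, and 24 of the 30 MRPS genes lay below that median. After median-ratio rescaling the lower and higher calls were 37 and 2 (median -0.24) for MRPL and 15 and 2 (median -0.14) for MRPS. All genes then had 26.6% lower and 26.7% higher. Without Dox replicate 2, the MRPS median was -0.014.

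Symbols do not match the position of 3 proteins. Structures of the human mitoribosome place MRPS18A and MRPS30 in the large subunit, and MRPS36 was reassigned to the 2-oxoglutarate dehydrogenase complex. Grouped by structure, 25 of 50 large-subunit genes were lower and 5 higher (median -0.13), and 9 of 27 small-subunit genes were lower and 4 higher (median -0.02). The ratio of the 2 sums was then 2.30, 2.34 and 2.34 in Dox and 2.48, 2.45 and 2.47 in Ctrl. MRPS36 had 132, 122 and 118 TPM in Dox and 116, 116 and 118 TPM in Ctrl, a log2 fold change of 0.09 ± 0.04 (SE, limma adjusted p = 0.12) that was -0.02 after median-ratio rescaling.

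**Figure D2:**
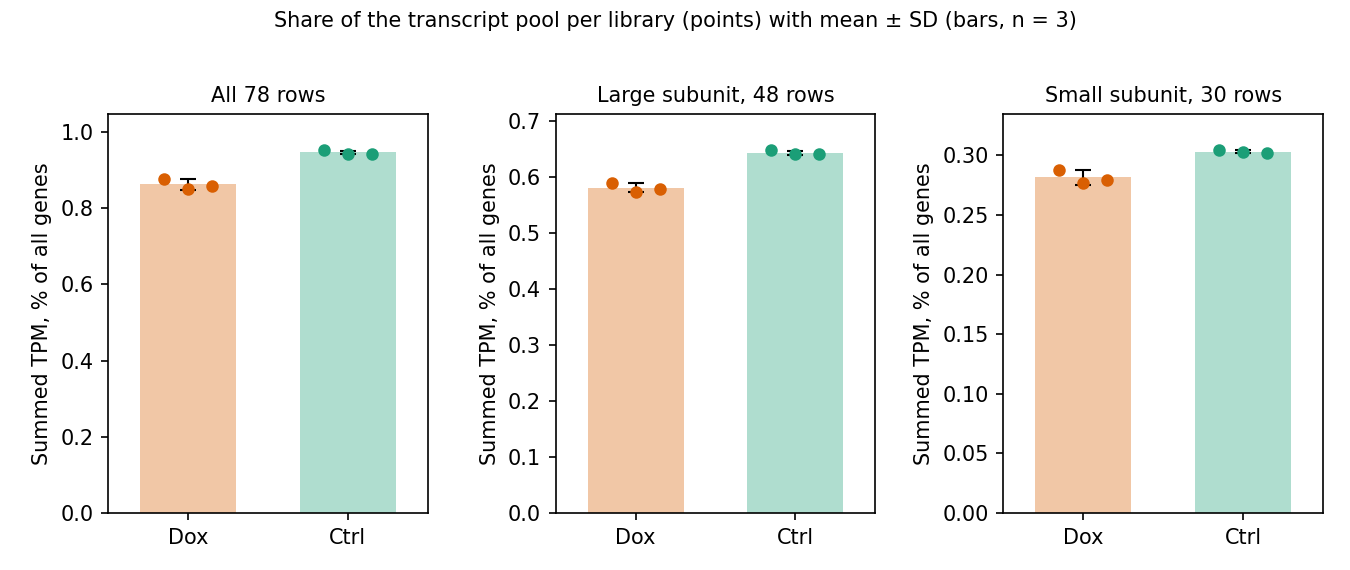
Summed TPM as a percent of all genes (vertical axes, each from 0) for all 78 genes, the large subunit and the small subunit. Points are libraries, and bars with whiskers give mean ± SD, n = 3. In each panel the 3 Dox points lie below the 3 Ctrl points, with means of 0.863% in Dox and 0.947% in Ctrl for all 78 genes.

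MRPS18A (ENSG00000096080.7) had the largest fall. It is 1 of 3 human proteins related to bacterial S18. Its level was 107, 117 and 119 TPM in Dox and 198, 189 and 194 TPM in Ctrl. Every Dox library was well below every Ctrl library, with a log2 fold change of -0.75 ± 0.05 (SE, limma adjusted p = 7.18e-06) and a ratio of 0.591. Neither of the other 2 relatives was called lower. MRPS18B, which sits in the small subunit away from the S18 site, had 133, 133 and 129 TPM in Dox and 113, 117 and 111 TPM in Ctrl and was called higher (log2 fold change 0.21 ± 0.03, limma adjusted p = 0.00135). It was also called higher after both rescalings, at 0.10 and 0.12. MRPS18C, the protein at the S18 site itself, had 19.2, 16.9 and 19.7 TPM in Dox and 18.5, 17.6 and 16.9 TPM in Ctrl, overlapping groups and no call. On opposite strands, MRPS18A overlaps RSPH9 and MRPS18B overlaps PPP1R10 in GENCODE 29. Whether counting used strand is not stated in the labels, so reads of such pairs may be shared.

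Of the 10 largest falls, 7 were of large-subunit genes with a bacterial homolog, a class that holds 31 of the 78 entries. MRPS18A was left out of that class. MRPL17 (ENSG00000158042.8), the homolog of bacterial L17, had 213, 216 and 216 TPM in Dox and 324, 313 and 304 TPM in Ctrl. Its groups were far apart, with a log2 fold change of -0.54 ± 0.03 (SE, limma adjusted p = 7.05e-06). MRPL3 (ENSG00000114686.4), whose bacterial homolog L3 reaches towards the peptidyl transferase centre, had 180, 178 and 178 TPM in Dox and 251, 252 and 250 TPM in Ctrl. The spread within either group was under 2 TPM (SD), and the log2 fold change was -0.49 ± 0.03 (limma adjusted p = 4.18e-06).

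MRPL12 (ENSG00000262814.2) forms the stalk that binds translation factors. It had 264, 257 and 275 TPM in Dox and 350, 347 and 351 TPM in Ctrl, a log2 fold change of -0.40 ± 0.03 (limma adjusted p = 3.7e-05). MRPL4 and MRPL24, homologs of the tunnel proteins L4 and L24, changed by -0.40 ± 0.05 and -0.34 ± 0.03. MRPL4 averaged 55.1 ± 3.64 TPM in Dox and 73.0 ± 1.53 TPM in Ctrl, and MRPL24 averaged 248 ± 4.06 TPM in Dox and 313 ± 6.33 TPM in Ctrl (SD, n = 3 each). MRPL21 (-0.39 ± 0.03) and MRPL34 (-0.38 ± 0.05), homologs of bacterial L21 and L34, were the other 2. No Dox library of these genes reached the lowest Ctrl library.

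MRPS25 and MRPS34, small-subunit proteins with no bacterial homolog, complete the 10 largest falls. MRPS25 (ENSG00000131368.3) had 15.4, 15.9 and 15.3 TPM in Dox and 24.4, 24.4 and 22.9 TPM in Ctrl. The groups did not overlap, at a log2 fold change of -0.59 ± 0.05 (SE, limma adjusted p = 4.26e-05). It overlaps NR2C2 on the opposite strand. MRPS34 had 128, 134 and 140 TPM in Dox and 172, 164 and 170 TPM in Ctrl (-0.33 ± 0.04, limma adjusted p = 0.000361). MRPS30, which belongs to the large subunit by structure and is among the 5 least abundant, had 17.9, 17.6 and 16.95 TPM in Dox and 21.2, 22.1 and 22.6 TPM in Ctrl. It was called lower, at -0.31 ± 0.05 (limma adjusted p = 0.00115). All of the 10 largest falls and MRPS30 were also called lower under both rescalings.

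The largest rise was that of MRPL44 (ENSG00000135900.3), a mitochondrion-specific large-subunit protein with an RNase III-like fold. It had 140, 134 and 131 TPM in Dox and 95.5, 92.7 and 91.5 TPM in Ctrl. Its Dox libraries were all well above its Ctrl libraries, with a log2 fold change of 0.53 ± 0.04 (SE, limma adjusted p = 1.98e-05) and a ratio of 1.45. MRPS31 (ENSG00000102738.6), a mitochondrion-specific protein of the small subunit, had 17.01, 18.9 and 15.5 TPM in Dox and 12.6, 12.8 and 12.9 TPM in Ctrl. The groups did not overlap, although the Dox libraries spread more widely, and the log2 fold change was 0.39 ± 0.07 (limma adjusted p = 0.00287). MRPS31 rests on the fewest reads of the 78 genes, 211 to 307 per library. Reads may also be split with its copies MRPS31P4, at 6.88 TPM in Dox and 7.37 TPM in Ctrl, and MRPS31P5, at 2.18 TPM in Dox and 1.82 TPM in Ctrl, neither of which was called.

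MRPL50, another mitochondrion-specific large-subunit protein, had 41.8, 39.2 and 36.8 TPM in Dox and 31.5, 32.3 and 29.7 TPM in Ctrl. It was called higher, at 0.32 ± 0.06 (SE, limma adjusted p = 0.00219). MRPL44, MRPS31, MRPL50 and MRPS18B are the 4 genes called higher under all 3 scalings. The other 5 rises had log2 fold changes of 0.11 to 0.24 as deposited and lost their call under both rescalings. These were MRPS17 (0.24 ± 0.08, limma adjusted p = 0.0438), MRPS10 (0.18 ± 0.04), MRPL27 (0.18 ± 0.05), MRPL28 (0.13 ± 0.03) and MRPL16 (0.11 ± 0.03), all homologs of bacterial proteins. MRPL16 was at -0.0021 after median-ratio rescaling. MRPS17 shares its locus with its second entry and with NIPSNAP2, so its reads may be split.

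**Figure D3:**
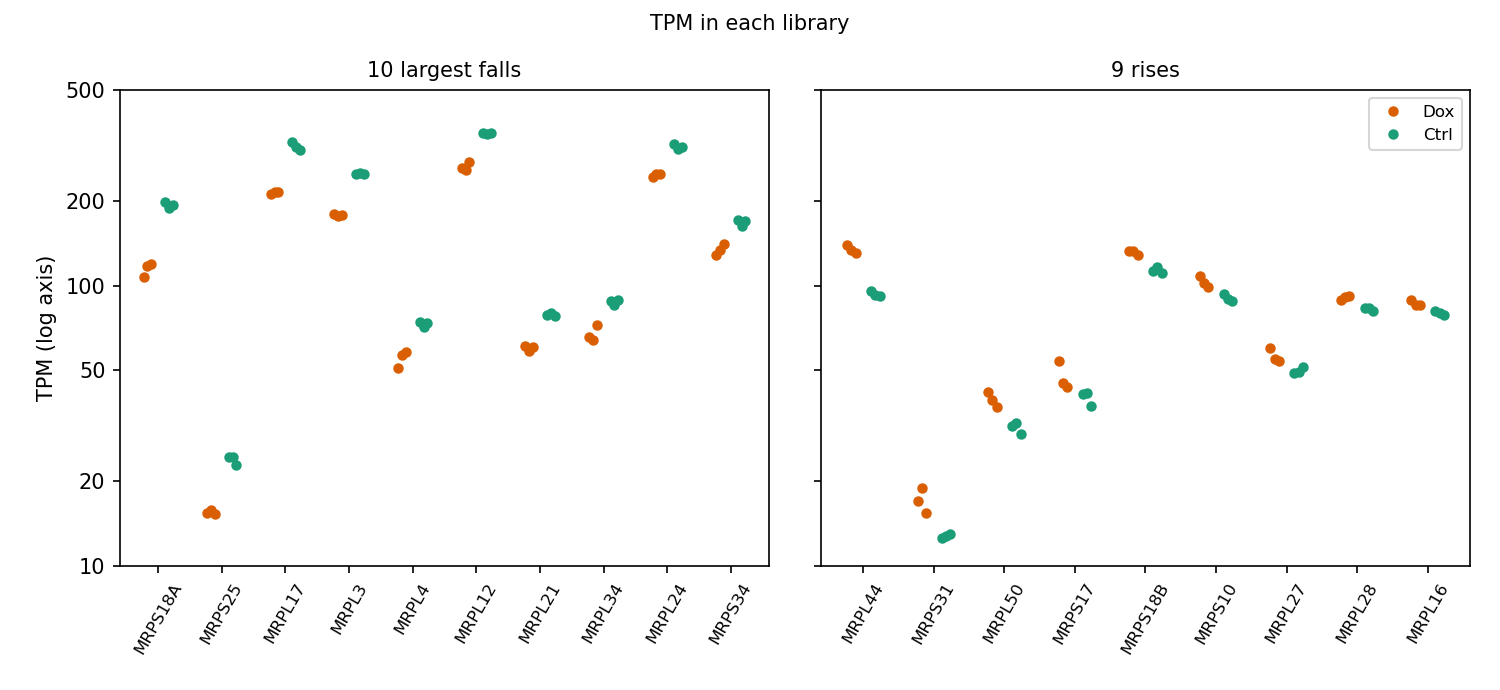
TPM in each library (log axis) for the 10 largest falls on the left and the 9 called rises on the right. Orange points are Dox libraries and green points are Ctrl libraries. No gene shown has overlapping groups. The largest fold difference of the left panel is that of MRPS18A (115 TPM in Dox and 194 TPM in Ctrl on average), and that of the right panel is MRPL44 (135 TPM in Dox and 93.2 TPM in Ctrl).

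The most abundant member, MRPL51, was not called. It had 571, 566 and 568 TPM in Dox and 580, 549 and 570 TPM in Ctrl, and the 2 groups overlapped. Its log2 fold change of 0.01 ± 0.03 (limma adjusted p = 0.895) was -0.10 after median-ratio rescaling, without a call, and 0.07 after quantile normalization, where it was called higher (adjusted p = 0.0337). MRPL37, next in abundance, had 295, 291 and 296 TPM in Dox and 323, 325 and 323 TPM in Ctrl. The difference was small but larger than the spread, at -0.14 ± 0.03 (limma adjusted p = 0.00264). MRPL12, MRPL24 and MRPL17 complete the 5 most abundant, so 4 of these 5 were lower in Dox. The least abundant, MRPL46, averaged 7.89 ± 0.871 TPM in Dox and 7.60 ± 0.811 TPM in Ctrl (SD, n = 3 each) and was not called. MRPS18C, MRPS25, MRPS30 and MRPS31 complete the 5 least abundant.

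The members were also grouped by descent, leaving aside MRPS18A, MRPS18B and MRPS36. Of 31 large-subunit entries with a bacterial homolog, 17 were lower and 3 higher, with a median log2 fold change of -0.14 and a summed level of 3534 ± 43.5 TPM in Dox and 4054 ± 22.0 TPM in Ctrl (SD, n = 3 each). Of 17 such small-subunit entries, 5 were lower and 2 higher, with a median of 0.01 that became -0.10 (median-ratio) and -0.08 (quantile) on rescaling. Their summed level was 1468 ± 38.3 TPM in Dox and 1523 ± 8.84 TPM in Ctrl. Of 18 mitochondrion-specific large-subunit genes, 7 were lower and 2 higher (median -0.10), and of 9 such small-subunit genes 4 were lower and 1 higher (median -0.08). The difference between these classes was not tested. Of all genes tested, 17.8% were lower and 35.9% higher as deposited. The median of all genes was 0.10 as deposited, -0.00088 (median-ratio) and -0.036 (quantile).

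For 19 members the call as deposited changed under both rescalings, and 14 of them turned from not called to lower and 5 from higher to not called. None of the 19 went from higher to lower. Another 6 changed call under 1 rescaling only: median-ratio rescaling alone gave a lower call for MRPL14, MRPL47, MRPL49 and MRPS16, and quantile normalization alone gave a lower call for MRPS22 and a higher one for MRPL51. The largest of the 14 by size were MRPL23 (54.2 ± 2.19 TPM in Dox and 61.9 ± 6.23 TPM in Ctrl), MRPL39 (137 ± 8.49 TPM in Dox and 152 ± 8.79 TPM in Ctrl) and MRPL54 (150 ± 5.33 TPM in Dox and 164 ± 11.03 TPM in Ctrl). MRPL30, MRPL9 and MRPS27 followed, with log2 fold changes of -0.10, -0.10 and -0.08 as deposited and of -0.21, -0.21 and -0.19 after median-ratio rescaling.

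The genes are spread over 21 chromosomes, counted for the 76 entries found in GENCODE 29, and are short and abundant. Their median length was 2340 bases, against 3957 for all genes tested, and their median level 87.0 TPM, against 14.6 TPM. Change rose with gene length over all genes, with medians of 0.01, 0.06, 0.11 and 0.18 from the shortest to the longest of 4 equal classes. The 33, 31, 11 and 3 members in these classes had medians of -0.07, -0.10, -0.13 and -0.08, below all genes in each class. With the length trend of each library removed, 52 members were lower and 4 higher, with a median of -0.19 against -0.05 for all genes.

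Several members share a promoter region with another gene. For 20 of them, a tested protein-coding gene starts within 500 bases on the opposite strand. Of these partners, 4 were lower and 6 higher in Dox, with a median log2 fold change of 0.05. These counts are near the shares over all genes, 17.8% lower and 35.9% higher. The changes of member and partner had a Pearson correlation of 0.14 over the 20 pairs, which come from the same 6 libraries, and MRPL46 and MRPS11 are each other's partner. MRPL18 and its partner TCP1, a subunit of the cytosolic chaperonin, were both lower, at -0.31 and -0.30. MRPL43 was at -0.06 without a call, and its partner TWNK (listed as C10orf2), the mitochondrial DNA helicase, was higher, at 0.90. Among the 25 members with no overlapping gene on either strand, 12 were lower and 4 higher, with a median of -0.14.

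A RefSeq promoter (300 bases, 250 before the start and 50 after it) was matched for 68 of the 76 symbols, and for 10308 genes tested. Motifs were searched on both strands. Some genes have several annotated starts (4 for MRPL34), and a motif counted if any window of the gene held it. The percents are therefore of genes and depend on the number of starts. The ETS motif CCGGAAG was found in 29 of the 68 genes (42.6%) and in 23.1% of all, and the YY1 core ATGGCGG in 23 (33.8%) and in 12.9% of all. The TEAD motif GGAATG, the letters bound by the partners of YAP1, was found in 11 (16.2%) and in 14.7% of all. The E-box CACGTG, bound by MYC among others, was found in 10 (14.7%) and in 12.7% of all, and the NRF1 core GCGCATGC in 6 (8.82%) and in 6.81% of all. A match is a run of letters and not a site of binding. MRPL21, MRPL10, MRPL23, MRPL2, MRPL35, MRPL15, MRPL13 and MRPS28 were not matched.

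Mitoribosomal subunits also carry other symbols. All 7 of these had a negative log2 fold change, with a median of -0.19. Of them, 4 were called lower as deposited, against 17.8% of all genes tested, and 7 after median-ratio rescaling, against 26.6%. MRPL58 (listed as ICT1), a peptidyl-tRNA hydrolase built into the large subunit, averaged 135 ± 5.35 TPM in Dox and 172 ± 3.87 TPM in Ctrl (-0.34 ± 0.04). GADD45GIP1 (-0.24 ± 0.03), AURKAIP1 (-0.23 ± 0.04) and MRPL57 (listed as MRP63, -0.19 ± 0.05) were the other 3.

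Of 27 assembly and rRNA modification genes, 10 were higher (37.0%) and 5 lower (18.5%), near the shares over all genes tested (35.9% and 17.8%), with a median of 0.06 that became -0.04 (median-ratio) and -0.08 (quantile) on rescaling. The RNA helicase DDX28 averaged 10.1 ± 0.375 TPM in Dox and 5.37 ± 0.939 TPM in Ctrl (0.81 ± 0.11, limma adjusted p = 0.000473). MALSU1, which keeps the large subunit from joining too early, averaged 35.6 ± 1.11 TPM in Dox and 24.8 ± 0.368 TPM in Ctrl (0.50 ± 0.04). MPV17L2 (0.48 ± 0.05) and the rRNA methyltransferase MRM2 (listed as FTSJ2, 0.35 ± 0.05) were also higher. C1QBP, a matrix protein that binds RNA, averaged 461 ± 17.3 TPM in Dox and 648 ± 32.1 TPM in Ctrl (-0.49 ± 0.04). YBEY (-0.28 ± 0.06), NOA1 (-0.23 ± 0.05) and RPUSD4 (-0.21 ± 0.04) were lower as well.

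Of 17 translation factors and mRNA-binding partners, 6 were lower (35.3%) and 5 higher (29.4%), with a median of -0.08. Over all genes tested, 17.8% were lower and 35.9% higher. LRPPRC and SLIRP, which together stabilise mitochondrial mRNAs, were both lower. LRPPRC averaged 51.7 ± 0.548 TPM in Dox and 77.3 ± 1.69 TPM in Ctrl (-0.57 ± 0.03, limma adjusted p = 7.41e-06), and SLIRP averaged 128 ± 7.36 TPM in Dox and 174 ± 5.32 TPM in Ctrl (-0.44 ± 0.05). The release factor MTRF1L (-0.33 ± 0.07) and the recycling factor MRRF (-0.24 ± 0.05) were lower, and MTRFR (listed as C12orf65, 0.26 ± 0.05), GFM2 (0.17 ± 0.05), MTFMT (0.16 ± 0.06) and TACO1 (0.15 ± 0.04) were higher. At most 1 was called higher under either rescaling, and 2 were with voom on recovered reads.

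Of 11 genes for mitochondrial DNA replication and transcription, 4 were higher (36.4%) and 2 lower (18.2%), again near the shares over all genes (median 0.13, and -0.04 after quantile normalization). TWNK had the largest rise, with 11.5 ± 1.21 TPM in Dox and 5.71 ± 0.674 TPM in Ctrl. MTERF1 (0.43 ± 0.10), the transcription factor TFB2M (0.40 ± 0.05) and the polymerase POLG (0.13 ± 0.04) rose, and TOP1MT (-0.49 ± 0.09) and SSBP1 (-0.21 ± 0.04) fell. Of 10 regulators of mitochondrial biogenesis, 8 were tested, with 3 higher (37.5%) and 1 lower (12.5%). These counts too are near the shares over all genes tested, 35.9% higher and 17.8% lower. MYC averaged 184 ± 8.63 TPM in Dox and 83.4 ± 4.23 TPM in Ctrl (1.13 ± 0.05, limma adjusted p = 1.5e-06). The coactivator PPRC1 averaged 14.9 ± 0.742 TPM in Dox and 6.99 ± 0.160 TPM in Ctrl (0.99 ± 0.06). GABPB1 was higher (0.22 ± 0.06), and the nuclear receptor ESRRA was lower (-0.55 ± 0.04). NRF1, YY1 and GABPA were not called.

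The RNAs encoded by mitochondrial DNA were called in opposite directions. Both mitochondrial rRNAs were lower in Dox, as they were after median-ratio rescaling, and 1 was lower after quantile normalization. MT-RNR1, of the small subunit, averaged 1046 ± 130 TPM in Dox and 1335 ± 51.8 TPM in Ctrl (-0.36 ± 0.08, limma adjusted p = 0.00675), and MT-RNR2, of the large subunit, changed by -0.23 ± 0.06 (adjusted p = 0.014). These libraries were made by an mRNA protocol, which selects polyadenylated RNA and captures rRNA incompletely. Of the 13 mitochondrially encoded mRNAs, 8 were called higher (61.5%), against 35.9% of all genes tested. All 13 had a positive log2 fold change, with a median of 0.19, against 0.10 over all genes. After median-ratio rescaling 1 was higher, against 26.7% of all genes, and after quantile normalization 12 were, against 23.8%. MT-CYB, of complex III, had 1539, 1621 and 1480 TPM in Dox and 1214, 1032 and 1076 TPM in Ctrl, without overlap (0.48 ± 0.06, limma adjusted p = 0.000421). MT-ATP6 (0.33 ± 0.08), MT-CO3 (0.30 ± 0.07) and MT-CO2 (0.30 ± 0.07) followed.

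Genes of the cytosolic ribosome and of the nuclear respiratory chain were also lower in Dox. Of 84 cytosolic ribosomal protein genes tested, 78 were lower and 3 higher (median -0.26), and their sum was 91229 ± 2730 TPM in Dox and 108422 ± 2639 TPM in Ctrl, a ratio of 0.841. Of 82 nuclear oxidative phosphorylation genes tested, 48 were lower and 4 higher (median -0.12), with a ratio of sums of 0.894. Among all genes tested, 17.8% were lower and 35.9% higher. The mitochondrial ribosomal protein genes, at 34 lower of 78 and a ratio of 0.911, had the smallest share of lower calls of these 3 families as deposited. Median-ratio rescaling kept this order, with 52 of the 78 lower, 65 of the 82 oxidative phosphorylation genes and 79 of the 84 cytosolic ones. After quantile normalization 49 of the 78 were lower, against 47 of the 82 oxidative phosphorylation genes and 58 of the 84 cytosolic ones. The differences between families were not tested.

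**Figure D4:**
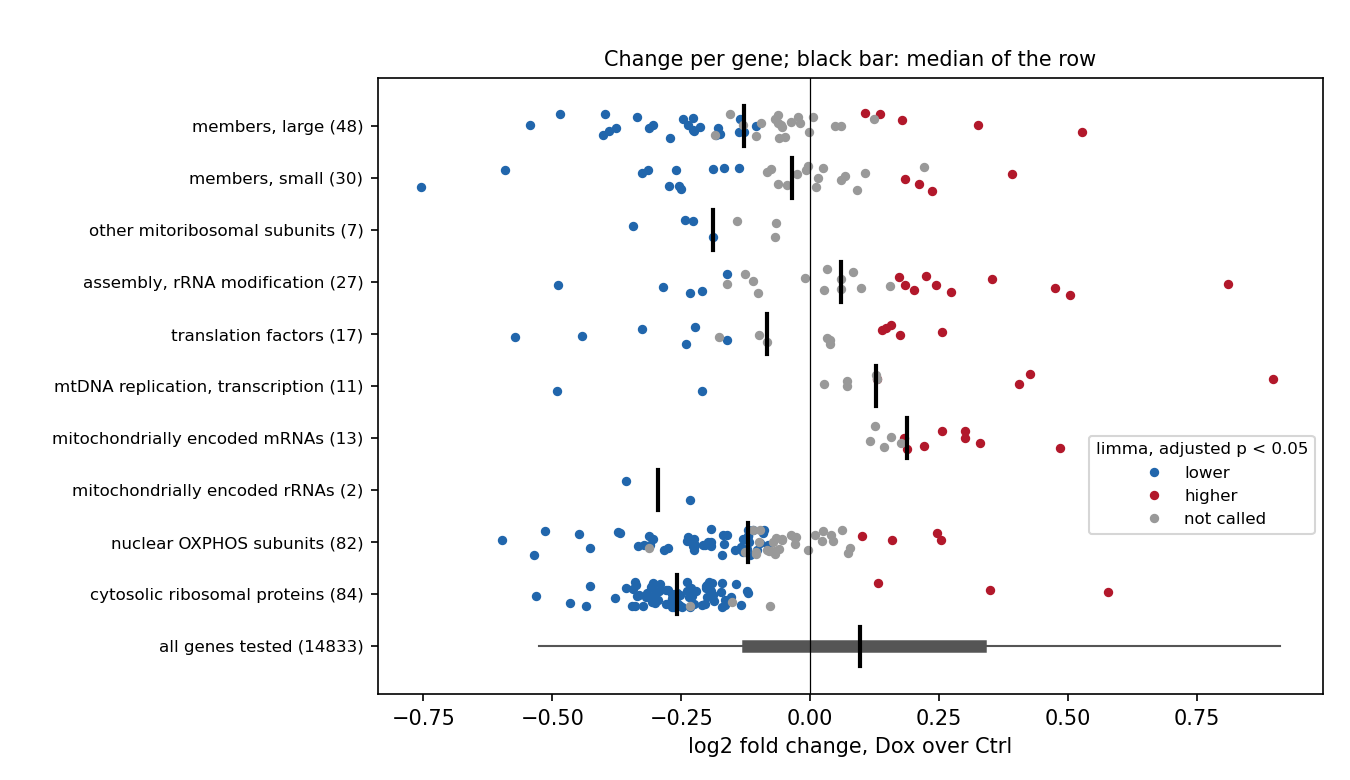
Log2 fold change, Dox over Ctrl, of each gene (points) in the large- and small-subunit members, related lists and 2 comparison families. The regulators of mitochondrial biogenesis are not drawn. Point colours give the limma call, and black bars give medians. The lowest line shows all 14833 genes tested, with a thick bar from the 25th to the 75th percentile (-0.12 to 0.33) and a thin line from the 5th to the 95th (-0.53 to 0.91). The medians run from -0.30 for the mitochondrial rRNAs to 0.19 for the mitochondrially encoded mRNAs, with the members between, at -0.13 and -0.03.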

How the data were processed

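Stranded mRNA libraries (TruSeq) were grouped by sample title. Per the submitters' processing notes, FastQC 0.11.2, STAR 2.5.3a, featureCounts and edgeR were used with hg19, with no annotation release or strand setting named there. The deposited table holds TPM values made by the authors, each library summing to the same total, so values are relative within a library. Whole reads were recovered from the TPM values and gene lengths (tolerance 0.01 reads). Of the tested genes, 9115 came out whole with the GENCODE 29 exon length. For the other 5718, the smallest length that gave whole reads was taken, so they are no check of the recovery. A value of 3 reads on 1 kb is 0.335 to 0.401 TPM, which covers counting error only. Chi-square per gene was 2.55 to 4.99 between libraries of a group, above counting error, so no 2 were treated as the same library. This does not show that they came from separate cultures.

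A filter of 1 TPM or more in 3 or more libraries left 14833 genes. On their log2(TPM + 1) values, limma 3.58.1 (R 4.3.3, moderated with a mean-variance trend) gave two-sided p-values, which were adjusted by Benjamini and Hochberg's method and called under 0.05. The fit was also run on simulated data with few changed genes, which does not test the scaling of the libraries. Fold changes on this scale understate changes of genes near 1 TPM. The members and gene lists were chosen with earlier results of these data known, and bacterial descent was assigned after the data were seen. Members are named by rule: the 10 largest falls and rises among called genes without overlap, the 5 most and 5 least abundant, the S18 relatives, members placed elsewhere by structure, up to 6 whose call depends on scaling, and up to 4 called genes per direction of each list. Neighbours and copies are named outside that rule, with values already seen. Alternatives were a pseudocount of 0.1, no filter, a mean of at least 5 TPM, median-ratio and quantile scaling, voom on recovered reads, a replicate block, subunits by structure, 2 other denominators and leaving out each library. Removal of the length trend (loess, span 0.3) and of the 2 overlapping entries was added after the data were seen. Figures used matplotlib 3.10.9.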

Additional observations from a re-analysis of the deposited data

How the results depend on the processing

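The excess of lower over higher members and the lower summed share kept their direction in every alternative run. Median-ratio rescaling gave 52 lower and 4 higher (median log2 fold change -0.20), with 37 lower and 2 higher for the large subunit (median -0.24) and 2 higher for the small subunit (median -0.14). Length-trend removal, added after the data were seen, gave 52 and 4 (-0.19), 36 and 2 for the large subunit (-0.21) and 2 higher for the small subunit (-0.12), with 4720 lower and 3381 higher over all genes. Quantile normalization gave 5 higher (-0.19), 3 for the large subunit (-0.20) and 2 for the small subunit (-0.12), with 4348 lower and 3536 higher over all genes. voom on recovered reads gave medians of -0.13, -0.17 (large, 3 higher) and -0.079 (small). Without the 100 most abundant genes in the denominator, the share ratio was 0.893, and 0.886 for the large subunit. Leaving out 1 library gave 27 to 36 lower (27 without Dox replicate 2) and 7 to 11 higher, with medians of -0.11 to -0.089 and share ratios of 0.903 to 0.918. For the large subunit these were 18 to 26, 4 to 6, -0.13 to -0.12 and 0.897 to 0.909, and for the small subunit 9 to 11, 3 to 5, -0.05 to -0.01 and 0.917 to 0.936. Of the 34 lower and 9 higher calls, 27 and 6 were kept in every such fit. Over all genes, 2180 to 2408 were lower and 4218 to 5295 higher. The median of all genes turned to -0.046, -0.00088 and -0.036 after length-trend removal, median-ratio rescaling and quantile normalization. Of the members named by rule, 5 changed sign under an alternative, none with a call in the new direction: MRPL16 (-0.0021, median-ratio), MRPS36 (-0.018, median-ratio), MRPS18C (-0.081, -0.036 and -0.087 under length-trend removal, median-ratio and quantile), MRPL46 (-0.15, -0.050 and -0.13 in that order, and -0.027 to 0.11 leaving out 1 library) and MRPL51 (-0.062 under length-trend removal, -0.10 median-ratio, -0.036 voom, and -0.017 to 0.023 leaving out 1 library). The causes were not tested. Deviations of same-numbered libraries correlated at -0.0085, 0.063 and 0.0035. Such values give little sign that the replicate numbers pair the libraries, but with so few libraries they cannot exclude it. The fit with the replicate block gave 36 lower and 9 higher. Depth limits MRPS31 and MRPL46 most, at 211 to 307 and 389 to 453 reads per library.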
